A study of Homo sapiens with 24 samples.

Results

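The comparison described here set cells treated with calcitriol and estrogen together for 36 h against untreated cells at 0 h in 2 human B-lymphoblastoid lines, GM10855 and GM10861, HapMap lines that grow because Epstein-Barr virus has immortalised their B cells. Its members were chosen by the labels for agent and time: 6 arrays of cells given both agents and 6 of untreated cells, 3 of each in each line, which make 12 of the 24 arrays of the series. The other 12 arrays held the same lines after 36 h with calcitriol alone or with estrogen alone, 3 arrays in each group. No group carried a genetic alteration made for the study, and each line stands for a single person's B cells. The labels state no dose, no vehicle, no culture conditions and not which estrogen was used. Untreated cells were sampled at 0 h only, so the agents and 36 h of culture cannot be told apart in a change against them.

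Calcitriol is the hormonal form of vitamin D. It binds the vitamin D receptor VDR, which pairs with a retinoid X receptor such as RXRA on DNA and there raises or lowers the transcription of nearby genes. In B cells this pathway is known for inducing CYP24A1, the enzyme that degrades calcitriol, and for damping proliferation and the formation of plasma cells. Estrogen binds ESR1 and ESR2, ligand-activated transcription factors of the same nuclear receptor family.

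The values were log2 signals per probe set, a set of short probes for a gene, as the authors deposited them after RMA normalisation. Each line was compared with itself, the 2 changes were averaged and each was tested with limma over 21214 probe sets that carry a gene symbol. A probe set was called changed at a Benjamini-Hochberg adjusted p under 0.05, and all p-values below that are called adjusted come from that fit. A change of 1 on the log2 scale is a doubling of the signal. No label ties the 3 arrays of a group to separate cultures, so p-values measure only the spread between these samples, and that spread may be technical. Array medians lay between 5.384 and 5.498, and the correlation within a group was 0.9901 to 0.9954. Array 1 of GM10855 with both agents stood apart on the second principal component, at -19.8, against -6.76 and -4.37 for the other arrays of its group and 12.1, 8.63 and 0.666 for untreated GM10855. Counts and medians that moved most without that array are given both ways beside them.

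Markers of B cells and of other cell types were read on the same arrays. No detection limit came with the values, so no marker could be called absent, and signals of different probe sets do not rank the amounts of RNA. Percentiles given below only place a signal among those of all probe sets. The 21 B cell markers measured had mean log2 signals of 7.51 to 7.56 on the arrays with both agents, against 7.37 to 7.55 on untreated arrays. The 17 plasma cell markers had 8.45 to 8.52 in GM10855 with both agents, against 8.31 to 8.39 untreated. In GM10861 the plasma cell markers had 7.98 to 8.03 with both agents, against 7.83 to 7.9 untreated, so the ranges did not overlap within either line. Means of the fibroblast, erythroid, monocyte, T cell and NK cell markers stayed between 3.94 and 5.01 with both agents, against 3.92 to 5.09 in untreated cells, and 0 members of these 5 lists were called changed. Over all genes measured 0.994% were called higher and 0.157% lower.

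With both agents, 211 probe sets were higher and 32 were lower than in untreated cells, which is 0.995% and 0.151% of those tested and 1.15% in all. Without array 1 of GM10855 with both agents, 142 were higher and 23 lower. The strongest rises were those of the antimicrobial peptide gene CAMP (4.89-fold) and CYP24A1 (4.27-fold), both known vitamin D targets, and of the steroid sulfatase STS (3.79-fold). Rises also included CD38 and TNFRSF17 of the plasma cell markers, CD79A and CR2 of the B cell markers, ACSL1 and SLC25A20 of the fatty acid list and SULF2 and IDS of the sulfatases, although most members of each of these lists were not called. Falls were smaller, and the largest among the genes that the naming rule admits were those of the growth factor HGF, to 0.631 of the untreated signal, and of the annexin ANXA1, to 0.672. A change of at least 0.5 on the log2 scale was reached by 41 of the called rises and 3 of the called falls. Those 3 were HGF, ANXA1 and the small nucleolar RNA SNORD116-18, which the rule leaves out and which changed by -0.626, more than ANXA1. In bulk RNA, fewer cells of a kind and less RNA per cell cannot be told apart.

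CAMP encodes cathelicidin, an antimicrobial peptide. Its log2 signal was 8.39, 8.60 and 8.17 in GM10855 with both agents, against 5.69, 6.27 and 5.99 untreated, and 7.87, 8.01 and 7.88 in GM10861 with both agents, against 5.71, 5.96 and 5.55 untreated. Every array with both agents lay above every untreated array, by an average of 2.29 ± 0.10 on the log2 scale (SE, adjusted p = 5.74e-13, n = 6 arrays each). CAMP stood at percentile 51.4 of all probe sets in untreated cells.

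CYP24A1, the enzyme that starts the breakdown of calcitriol, had log2 signals of 5.35, 5.02 and 4.93 in GM10855 with both agents, against 3.10, 3.24 and 3.57 untreated. In GM10861 they were 5.68, 6.30 and 6.26 with both agents, against 3.34, 3.83 and 3.90 untreated. The groups did not overlap, and the mean change was 2.09 ± 0.12 (SE, adjusted p = 2.83e-11). The untreated signal was at percentile 8.81 of all probe sets, where RMA compresses fold changes.

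STS removes sulfate from steroid sulfates, a step that yields active estrogens and androgens in tissues. Its log2 signal reached 7.31, 7.19 and 7.09 in GM10855 with both agents, against 5.16, 5.12 and 4.80 untreated, and 7.60, 7.51 and 7.54 in GM10861 with both agents, against 5.89, 5.83 and 5.90 untreated. This was the change with the smallest p of the comparison, 1.92 ± 0.06 (SE, adjusted p = 5.56e-16). STS was one of 21 measured sulfatases and sulfotransferases, of which 3 rose and 0 fell. SULF2, which trims sulfates from heparan sulfate outside the cell, rose by 0.74 ± 0.08 (adjusted p = 7.06e-06), and IDS, the lysosomal iduronate sulfatase, rose by 0.30 ± 0.05 (adjusted p = 0.00356). A second IDS probe set changed by 0.126 and was not called (adjusted p = 0.653). The list's median change was 0.0142, beside -8.25e-05 over 18418 genes, of which 0.994% were called higher and 0.157% lower.

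CD38, a surface enzyme that consumes NAD and marks activated B cells and plasma cells, had log2 signals of 9.22, 9.06 and 9.33 in GM10855 with both agents, against 8.61, 8.26 and 8.40 untreated. In GM10861 the signals were 8.55, 8.67 and 8.53 with both agents, against 7.46, 7.24 and 7.33 untreated, with no overlap in either line. CD38 rose by 1.01 ± 0.06 (SE, adjusted p = 2.28e-10). Among the 17 plasma cell markers TNFRSF17, the receptor BCMA for survival factors of plasma cells, rose as well, by 0.66 ± 0.05 (adjusted p = 1.15e-08), and 0 fell. Over all genes 0.994% rose and 0.157% fell. The other 15 markers were not called; the plasma cell transcription factor PRDM1 changed by 0.181 (adjusted p = 0.206) and XBP1, which drives secretory capacity, by -0.0363 (adjusted p = 0.864).

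CD79A, which carries the B cell receptor's signal into the cell, had a log2 signal of 9.26 on each of the 3 arrays of GM10855 with both agents, against 8.57, 8.16 and 8.36 untreated. In GM10861 it had 9.17, 9.16 and 9.13 with both agents, against 8.47, 8.42 and 8.44 untreated. The treated arrays were close together and clear of the untreated ones, and the rise was 0.81 ± 0.06 (SE, adjusted p = 1.19e-08). Its partner chain CD79B changed by -0.0787 and was not called (adjusted p = 0.692). Of the 21 B cell markers 4 rose and 0 fell: besides CD79A these were CR2, the complement receptor that Epstein-Barr virus binds (0.52 ± 0.06, adjusted p = 1.22e-05), PAX5, the transcription factor of B cell identity (0.36 ± 0.05, adjusted p = 0.000412), and the transcription factor IRF8 (0.27 ± 0.06, adjusted p = 0.0196). Over all genes 0.994% were called higher and 0.157% lower. The median change over the 21 markers was -0.00362, with 16 of 21 above 0 and a median of 0.0737 in GM10861, and 10 of 21 above 0 and a median of -0.0598 in GM10855 (-0.0273 without array 1 with both agents). The mean log2 signal of the list was 7.53 to 7.56 in GM10861 with both agents, against 7.42 to 7.45 untreated, with no overlap, and 7.51 to 7.54 in GM10855 with both agents, against 7.37 to 7.55 untreated, so in GM10855 the mean and the median of the list differed in sign. IRF8 lost its call in 6 of the 12 fits that left out an array.

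**Figure D1:**
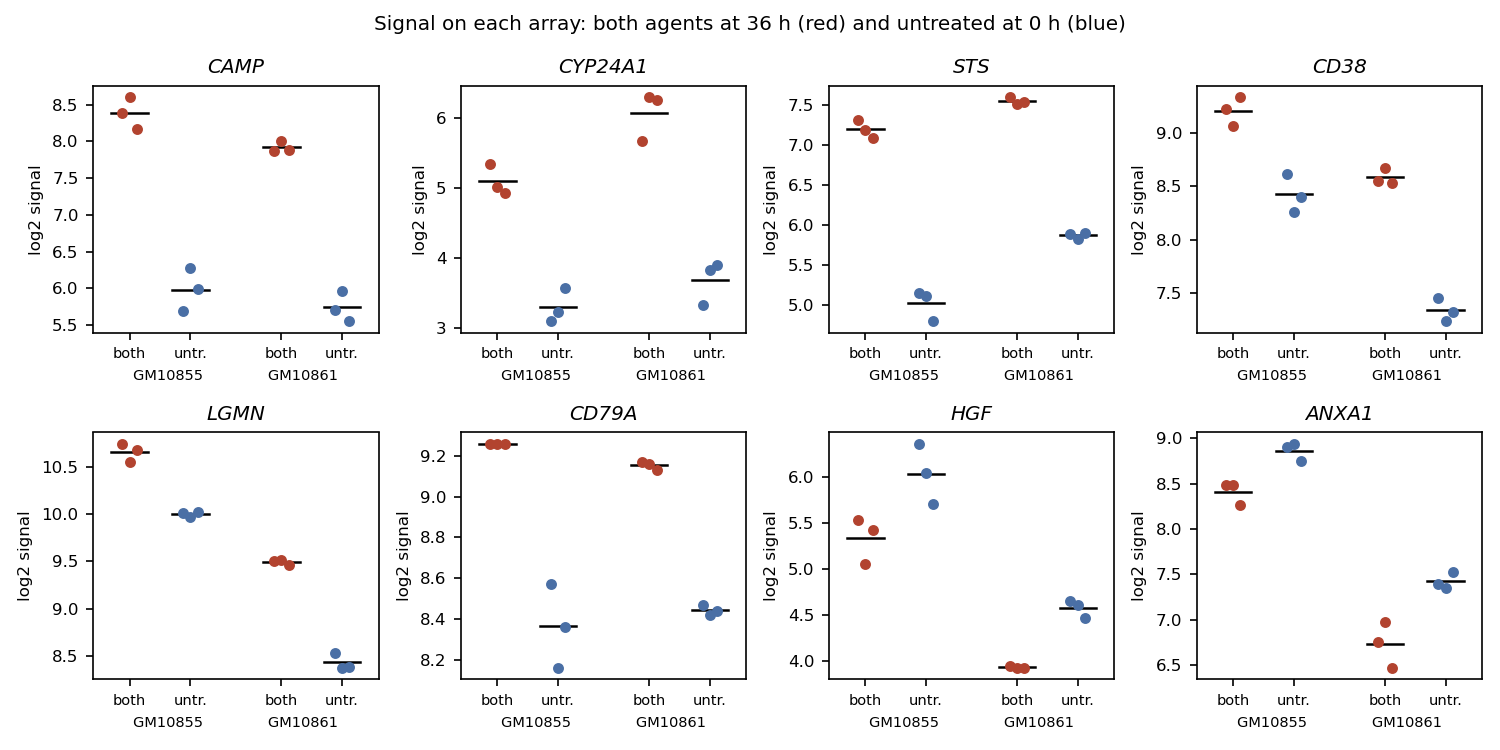
Log2 signal of 8 named genes on each array (vertical axis, a scale of its own for each gene), with both agents at 36 h (left, red) beside untreated at 0 h (right, blue) in GM10855 and GM10861; bars are means of 3 arrays. The 6 genes that rose and the 2 that fell, HGF and ANXA1, show no overlap between the groups within a line.

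LGMN, a lysosomal protease that processes antigens for MHC class II, had log2 signals of 10.74, 10.55 and 10.67 in GM10855 with both agents, against 10.01, 9.97 and 10.02 untreated, and of 9.51, 9.52 and 9.46 in GM10861 with both agents, against 8.54, 8.38 and 8.39 untreated. It rose by 0.85 ± 0.06 (SE, adjusted p = 2.52e-09) and was the only called gene of 18 in the MHC class II list. Among 35 lysosomal genes, 2 rose and 0 fell, where 0.994% of all genes rose and 0.157% fell. They were the cathepsin CTSZ (0.53 ± 0.07, adjusted p = 8.43e-05) and the cholesterol transporter NPC1 (0.28 ± 0.06, adjusted p = 0.0245), which lost its call in 6 of the 12 fits that left out an array.

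Metabolic genes among the 15 largest rises were ACSL1, which activates long-chain fatty acids (0.73 ± 0.06, adjusted p = 9.08e-08), SLC25A20, which carries acylcarnitines into mitochondria (0.71 ± 0.06, adjusted p = 4.19e-08), and SLC5A3, a transporter of myo-inositol (0.72 ± 0.06, adjusted p = 9.08e-08). ACSL1 and SLC25A20 were the called members of 31 genes of fatty acid synthesis and oxidation, whose median change was -0.00213. Over all genes 0.994% were called higher and 0.157% lower. The remaining large rises were those of the zinc finger protein ZNF589 (0.98), the Rab GTPase regulator DENND6B (0.936), the actin-binding protein CLMN (0.815), the Rac activator SPATA13 (0.731) and the splicing regulator MBNL2 (0.715). Each was higher than untreated in each line without overlap, and the 15 largest rises kept their call in all 12 fits that left out an array.

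Of the receptors themselves, VDR rose and the others did not pass the test. The VDR log2 signal was 5.4, 5.63 and 5.43 in GM10855 with both agents, against 5.08, 5.05 and 4.81 untreated, and 5.04, 5.08 and 5.31 in GM10861 with both agents, against 4.97, 4.85 and 4.93 untreated. That made 0.37 ± 0.06 on average (SE, adjusted p = 0.00156), although GM10861 by itself was not called (adjusted p = 0.654). Changes were -0.0895 for the partner RXRA (adjusted p = 0.692), -0.0664 for ESR1 (adjusted p = 0.856) and -0.0193 for ESR2 (adjusted p = 0.956). ESR1 and ESR2 were at percentiles 22.0 and 30.3 of all probe sets in untreated cells. CYP27B1, which makes calcitriol, changed by 0.0597 (adjusted p = 0.876).

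Of 37 known VDR target genes measured, 5 rose and 0 fell, where 0.994% of all genes rose and 0.157% fell. Besides CAMP and CYP24A1 they were G0S2, an inhibitor of triglyceride breakdown (0.45 ± 0.07, adjusted p = 0.00065), the sugar phosphate transporter SLC37A2 (0.46 ± 0.10, adjusted p = 0.0143) and the growth arrest gene GADD45A (0.30 ± 0.07, adjusted p = 0.0245). GADD45A lost its call in 6 of the 12 fits that left out an array and SLC37A2 in 1. The median over the list was 0.00888, and targets known from other tissues, such as the calcium channel gene TRPV6 (-0.0725) and osteopontin SPP1 (0.0840), had low signals and were not called. Of 14 genes of vitamin D metabolism and receptor partners 3 rose: CYP24A1, VDR and the coactivator NCOA2 (0.27 ± 0.06, adjusted p = 0.0230), which lost its call in 5 of those 12 fits.

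Of 25 estrogen response genes 0 were called in either direction, with a median change of -0.0104. Over all genes 0.994% were called higher and 0.157% lower, so a count of 0 among 25 is close to those shares. The smallest p-values of the 25 were those of BCL2, with a change of 0.196 (adjusted p = 0.122), and NPY1R, with -0.176 (adjusted p = 0.309). These were also the largest changes of the list in each direction. In untreated cells BCL2 stood at percentile 84.1 of all probe sets and NPY1R at percentile 1.1. In the same 25, the progesterone receptor PGR changed by 0.0499, TFF1 by 0.000488 and GREB1 by -0.0400, all at low signals. Among 17 estrogen receptors and cofactors the aromatase CYP19A1, which makes estrogens from androgens, was the only one called, with a rise of 0.43 ± 0.08 (adjusted p = 0.00736). Its log2 signal was 4.40, 4.11 and 3.87 in GM10855 with both agents, against 3.57, 3.54 and 3.56 untreated, and 3.55, 3.47 and 3.55 in GM10861 with both agents, against 3.29, 3.28 and 3.16 untreated. Those signals were low (percentile 7.86 in untreated cells) but did not overlap within a line.

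Among 39 chemokine and cytokine receptors and ligands, 4 rose and 4 fell, where 0.994% of all genes rose and 0.157% fell. The rises were CCL22, a chemokine that attracts T cells (0.60 ± 0.10, adjusted p = 0.000846), CXCR4, the receptor of CXCL12 (0.48 ± 0.08, adjusted p = 0.00141), the interleukin 2 receptor chain IL2RA (0.36 ± 0.06, adjusted p = 0.00143) and the chemokine receptor CXCR3 (0.288, adjusted p = 0.0479). The falls were HGF, CCR2, the interleukin 10 receptor chain IL10RA and the interleukin 6 receptor chain IL6R. The IL6R change was -0.24 on average (adjusted p = 0.0400), made up of -0.484 in GM10855 and 0.00379 in GM10861. Among 35 NF-kB targets and inflammatory cytokines 4 rose and 0 fell against the same shares, namely CCL22, the caspase 8 inhibitor CFLAR (0.30 ± 0.06, adjusted p = 0.00713), the costimulatory ligand CD80 (0.30 ± 0.06, adjusted p = 0.00879) and lymphotoxin LTA (0.34 ± 0.07, adjusted p = 0.0143). In that list 27 of 35 genes had a change above 0 and the median was 0.11, whereas 50% of all genes were above 0. The other probe sets of LTA changed by 0.269 and 0.225 without a call, and a second one of CFLAR by 0.204.

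Of the stress lists, 2 of 31 ATF4 targets rose, the mTORC1 inhibitor DDIT4 (0.40 ± 0.08, adjusted p = 0.00665) and the serine synthesis enzyme PHGDH (0.34 ± 0.06, adjusted p = 0.00102), and 0 fell, where 0.994% of all genes rose and 0.157% fell. The same shares stand behind the next counts. DDIT4 was also the 1 called gene of 37 in the hypoxia list, and CD69, an early activation marker (0.31 ± 0.06, adjusted p = 0.0133), that of 32 immediate early genes. Of 33 apoptosis regulators CFLAR and the survival factor BCL2L1 rose (0.27 ± 0.07, adjusted p = 0.0347). BCL2L1 lost its call in 9 of the 12 fits that left out an array. In the unfolded protein response, heat shock, NRF2, sterol synthesis and ribosome biogenesis lists 0 genes were called.

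HGF, a growth factor that acts on the receptor MET, had log2 signals of 5.53, 5.06 and 5.43 in GM10855 with both agents, against 6.36, 6.04 and 5.71 untreated. In GM10861 it had 3.95, 3.93 and 3.93 with both agents, against 4.65, 4.61 and 4.47 untreated. The HGF signal was low in GM10861, at percentile 14.2 of all probe sets with both agents and 24.2 untreated. In GM10855 it was at percentiles 39.3 and 55.1 in that order. HGF fell by 0.665 on the log2 scale, with an SE of 0.0975 (adjusted p = 0.000301). ANXA1, a calcium-dependent membrane-binding protein that limits inflammation, had 8.49, 8.49 and 8.26 in GM10855 with both agents, against 8.90, 8.94 and 8.75 untreated, and 6.75, 6.98 and 6.47 in GM10861 with both agents, against 7.39, 7.35 and 7.53 untreated. Both genes were lower on every treated array than on every untreated array of the same line, although untreated GM10861 started well below untreated GM10855. ANXA1 fell by 0.574, with an SE of 0.0794 (adjusted p = 0.000131).

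The other 13 of the 15 largest falls were between -0.427 and -0.295 and less firm. CCR2, the receptor of the monocyte chemokine CCL2, fell by 0.427 (adjusted p = 0.0143) from a low signal, and its groups overlapped in GM10855. A second CCR2 probe set changed by -0.331 and was not called (adjusted p = 0.314). CCL25, a chemokine of thymus and gut, fell by 0.425 (adjusted p = 0.0155), and IL10RA by 0.303 (adjusted p = 0.0280). IFIT1, an antiviral protein that binds foreign RNA, had 8.36, 8.04 and 8.20 in GM10855 with both agents, against 8.57, 8.50 and 8.36 untreated, and 7.26, 7.40 and 7.35 in GM10861 with both agents, against 7.91, 7.70 and 7.69 untreated. It fell by 0.352 (adjusted p = 0.0155) and was the 1 called gene of 43 interferon-stimulated genes, of which 33 had a change below 0 and whose median was -0.0524. Over all genes 50% were below 0, 0.994% were called higher and 0.157% lower. The other falls were those of FRMD6 (-0.361), the alpha-catenin relative CTNNAL1 (-0.332), the transcription factor TOX (-0.323), the calpain CAPN2 (-0.318), the Integrator subunit INTS3 (-0.316), the myosin MYO5C (-0.309) and the transcription factor CREB3L4 (-0.295). A second INTS3 probe set, with a higher signal, changed by 0.0948 (adjusted p = 0.556). Of the 15 falls, HGF, ANXA1, FRMD6, CTNNAL1 and MYO5C kept their call in all 12 fits that left out an array.

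Promoters are shown for the largest rise, for CD38 and CD79A, which also rose, and for the largest fall, because nuclear receptors bind hexamers of a common kind. The sequences are RefSeq promoters of build GRCh38.p14, 250 bases before to 50 bases after the gene start, printed along the strand of the gene. Capitals mark the hexamers AGGTCA and GGGTCA as well as GGTTCA and AGTTCA, read on both strands. CAMP lies at chr3:48223245-48223544 on the plus strand, CD38 at chr4:15778078-15778377 on the plus strand, CD79A at chr19:41877029-41877328 on the plus strand and HGF at chr7:81769998-81770297 on the minus strand.
CAMP: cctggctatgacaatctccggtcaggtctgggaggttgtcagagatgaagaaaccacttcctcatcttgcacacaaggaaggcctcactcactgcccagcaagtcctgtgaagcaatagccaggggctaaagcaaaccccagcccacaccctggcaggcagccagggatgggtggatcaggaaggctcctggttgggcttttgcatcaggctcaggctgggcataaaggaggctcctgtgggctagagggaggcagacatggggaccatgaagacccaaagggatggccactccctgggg
CD38: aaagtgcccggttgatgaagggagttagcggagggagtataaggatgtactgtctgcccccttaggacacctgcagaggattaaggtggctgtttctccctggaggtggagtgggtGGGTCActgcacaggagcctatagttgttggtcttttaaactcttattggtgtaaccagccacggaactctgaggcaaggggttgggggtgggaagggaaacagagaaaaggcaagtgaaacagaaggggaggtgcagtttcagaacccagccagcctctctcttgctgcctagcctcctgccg
CD79A: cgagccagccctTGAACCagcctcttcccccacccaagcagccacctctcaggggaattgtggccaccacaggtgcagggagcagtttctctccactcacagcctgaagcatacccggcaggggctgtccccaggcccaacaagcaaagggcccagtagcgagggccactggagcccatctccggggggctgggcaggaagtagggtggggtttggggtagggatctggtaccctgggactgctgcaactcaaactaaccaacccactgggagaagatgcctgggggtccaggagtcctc
HGF: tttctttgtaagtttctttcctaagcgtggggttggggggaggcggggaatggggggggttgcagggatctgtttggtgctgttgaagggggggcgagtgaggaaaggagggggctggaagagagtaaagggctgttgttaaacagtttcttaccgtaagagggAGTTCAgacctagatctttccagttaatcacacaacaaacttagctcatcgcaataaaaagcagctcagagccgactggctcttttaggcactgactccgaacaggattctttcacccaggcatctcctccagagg
The first base of the hexamer was at -134 in CD38, -238 in CD79A and -86 in HGF, and CAMP had none in this window. At least 1 hexamer was found in 11 of the 25 promoters listed for 12 of the 15 largest rises (44.0%) and in 5 of the 14 listed for 13 of the 15 largest falls (35.7%), near the 38.6% of all 35116 promoters. Among these genes 0 promoters held a direct repeat of the hexamers with 3 bases between them, a pattern present in 0.074% of all promoters, or the palindrome GGTCANNNTGACC, present in 0.057%. A match is only a run of letters, and its absence says nothing beyond this window.

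Changes of these genes with a single agent against the same untreated arrays stand side by side with those of both agents. CAMP changed by 2.29 with both agents, by 2.46 with calcitriol alone and by 0.127 with estrogen alone. CYP24A1 changed by 2.09, 2.06 and 0.0193 in that order, STS by 1.92, 1.89 and 0.187, CD38 by 1.01, 1.0 and 0.0178, and CD79A by 0.806, 0.851 and 0.0306. Over the 211 called rises the median change was 0.354 with both agents, 0.294 with calcitriol alone and 0.0654 with estrogen alone. For the 32 called falls it was -0.315, -0.219 and -0.0931 in the same order. The 3 comparisons share their untreated arrays and the calls were made in the first, so these medians are descriptions.

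**Figure D2:**
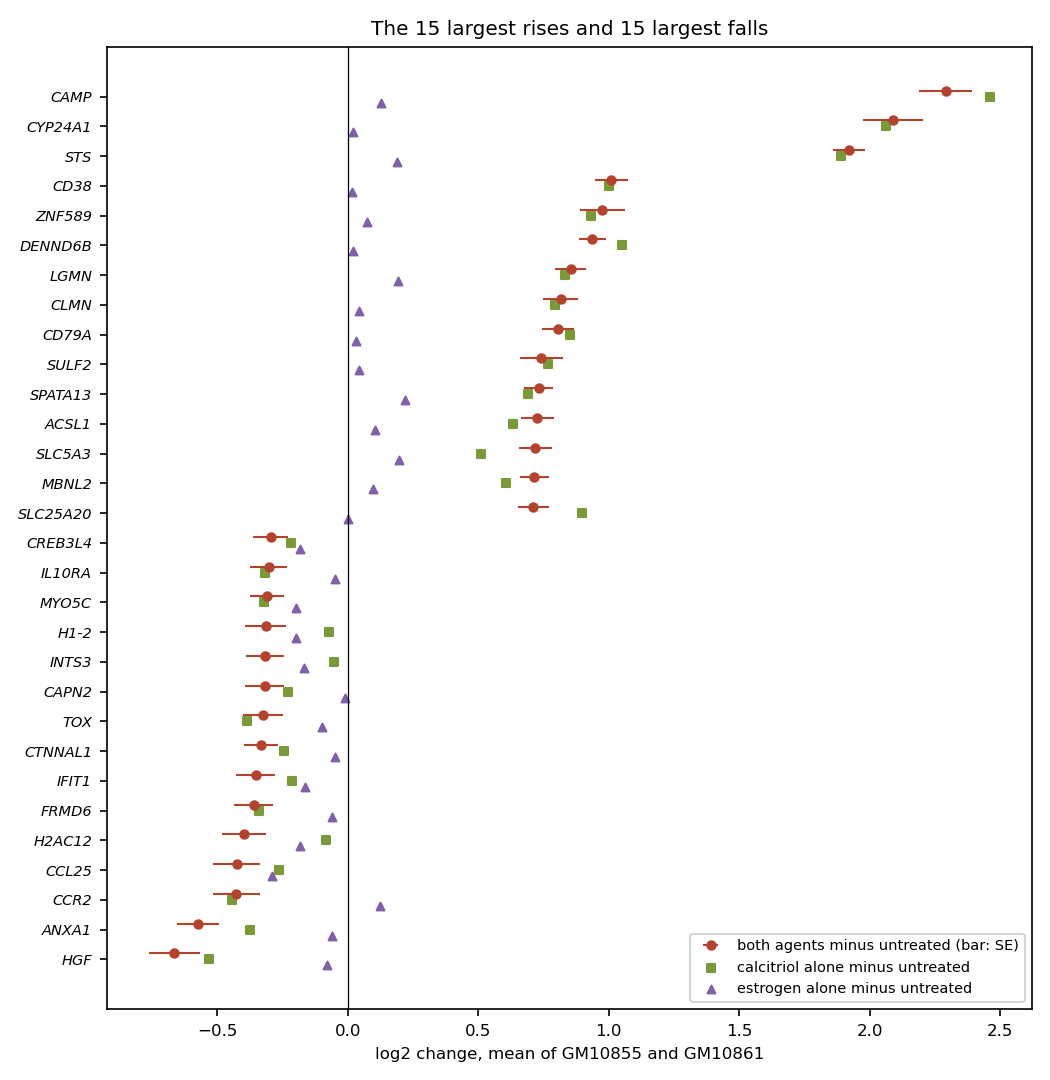
Log2 change against untreated cells, averaged over both lines (horizontal axis), for the 15 largest rises and 15 largest falls with both agents (circles with SE); squares give calcitriol alone and triangles estrogen alone, which share the untreated arrays. For CAMP, CYP24A1 and STS the circle and the square lie near 2 and the triangle near 0, whereas H2AC12, H1-2 and INTS3 have squares closer to 0 than their circles.

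At the matched time of 36 h, both agents together were tested against each agent alone. Against estrogen alone 144 probe sets were higher and 16 lower (0.679% and 0.0754%, 0.754% in all). CAMP was higher by 2.16 (adjusted p = 1.97e-12), CYP24A1 by 2.08 (adjusted p = 4.26e-11), STS by 1.73 (adjusted p = 5.41e-15), CD38 by 0.99 (adjusted p = 3.31e-10) and VDR by 0.308 (adjusted p = 0.0134). HGF was lower by a change of -0.586 (adjusted p = 0.00165), ANXA1 by -0.514 (adjusted p = 0.000671) and CCR2 by -0.552 (adjusted p = 0.00126). Some genes that changed against untreated did not pass this test. Of the falls, CCL25 differed from estrogen alone by -0.133 (adjusted p = 0.798), IFIT1 by -0.19 (adjusted p = 0.481), H2AC12 by -0.216 (adjusted p = 0.482) and MYO5C by -0.111 (adjusted p = 0.728). Rises failed it too, GADD45A among them, as 0 of the p53 targets were called. The NF-kB list had 1 call here and 4 against untreated, the known VDR targets 3 and 5, and the lysosomal genes 1 and 2. Other lists did not drop, such as the B cell markers (4 and 4) and the immediate early genes (2 and 1). These list counts do not follow single genes. The count of 160 was 99 without array 1 of GM10855 with both agents, and 99 when only the arrays compared entered the fit.

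Against calcitriol alone 0 probe sets were called by limma, although 1772 (8.35%) had an unadjusted p under 0.05. The 95% interval of the difference was -0.381 to 0.0427 for CAMP, -0.2 to 0.277 for CYP24A1, -0.0926 to 0.159 for STS and -0.123 to 0.134 for CD38, so a difference within these bounds cannot be told from none. Of the 15 largest rises and 15 largest falls against untreated, 23 had an interval that holds 0 and 7 had one that does not, none of them called. Those 7 were SLC5A3 (0.0761 to 0.338), SLC25A20 (-0.308 to -0.0633), DENND6B (-0.225 to -0.0113), H2AC12 (-0.49 to -0.137), INTS3 (-0.415 to -0.114), H1-2 (-0.404 to -0.0805) and ANXA1 (-0.363 to -0.034), with adjusted p between 0.409 and 0.56. The smallest p-values upward were those of TAF1L, a copy of the transcription factor subunit TAF1 (0.286), of the Ras regulator NF1 (0.316) and of the bitter taste receptor TAS2R14 (0.481). Downward they were those of the RNA methyltransferase MRM3 (-0.249), the neutrophil protein CD177 (-0.849) and HAPLN3 (-0.292). The smallest adjusted p was 0.115. A second CD177 probe set differed from calcitriol alone by 0.196, and neither of the CD177 probe sets was called (adjusted p = 0.558 and 0.408). NF1 passed with 3 of the alternatives: among probe sets with a mean signal of at least 5 (adjusted p = 0.0451), with array weights (adjusted p = 0.0484) and without array 2 of GM10855 with both agents (adjusted p = 0.0328). TAF1L passed with the first of these as well (adjusted p = 0.0451). Both genes have near-identical copies that probes may share.

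The interaction, which is the change with both agents minus the sum of the changes with each alone, gave 0 calls in limma. An unadjusted p under 0.05 was found for 935 probe sets (4.41%), and the smallest adjusted p was 0.671. For CAMP the interaction was -0.296 (95% interval -0.595 to 0.00371), for CYP24A1 0.019 (-0.318 to 0.356) and for STS -0.154 (-0.332 to 0.0235). The smallest p-values upward belonged to ZNF26 (0.38), TAF1L (0.332) and RIN2 (0.381), and downward to MRM3 (-0.298), PLCD4 (-0.322) and URB1-AS1 (-0.316). The median half-width of the 95% interval was 0.217, without adjustment for the number of probe sets. A call at the adjusted threshold takes a larger departure than that. ZNF26 and RIN2, at 0.38 and 0.381, were not called, so the 0 calls leave departures of such sizes unresolved.

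Calcitriol alone against estrogen alone shares no array with both agents against untreated and is matched for time. It called 104 probe sets higher and 17 lower with calcitriol (0.49% and 0.0801% of those tested). Only the sign and size of a change come from separate arrays here. The spread behind the calls was estimated from all arrays of the series together, so calls shared by the comparisons are not independent. Of the 211 rises with both agents, 180 were above 0 in this separate set of arrays, where 44.3% of all probe sets were. Called higher were 85, which is 40.3% of the 211 and 81.7% of the 104. CD38 differed there by 0.985 (adjusted p = 3.75e-10), TNFRSF17 by 0.687 (adjusted p = 6.14e-09), CTSZ by 0.62 (adjusted p = 1.21e-05), CYP19A1 by 0.442 (adjusted p = 0.00688) and VDR by 0.385 (adjusted p = 0.00158). Of the 32 falls, 23 were below 0 and 3 were called lower, which is 9.38% of the 32 and 17.6% of the 17. HGF differed by -0.452 (adjusted p = 0.0248) and CCR2 by -0.569 (adjusted p = 0.00118), whereas ANXA1 differed by -0.316 and was not called (adjusted p = 0.082). Among the genes called with both agents, IDS (-0.0778), NCOA2 (-0.0648), IL2RA (0.0111) and NPC1 (0.00842) were close to 0 in this comparison and not called. In opposite directions 0 probe sets were called.

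Each line was also tested by itself, and the counts do not test a difference between the lines. The fit used 1 spread per probe set for both lines. The median SD between arrays was 0.121 with both agents and 0.129 untreated in GM10855, against 0.0956 and 0.0954 in GM10861. In GM10855 alone 418 probe sets were higher and 77 lower (1.97% and 0.363%, 2.33% in all), and in GM10861 alone 36 were higher and 3 lower, ANXA1 among them (0.17% and 0.0141%, 0.184% in all). The GM10855 total of 495 was 120 when array 1 with both agents was left out, 226 without untreated array 2, 234 without array 3 with both agents, 242 without untreated array 1 and 640 without array 2 with both agents. Of the 211 rises averaged over the lines, 209 were above 0 in each line and 173 were larger in GM10855, with medians of 0.479 in GM10855 and 0.258 in GM10861. Without array 1 of GM10855 with both agents 175 of them were larger in GM10855, with a median of 0.448 there. The 32 falls had medians of -0.336 and -0.296 in that order, and 31 were below 0 in each line. Groups did not overlap within either line for 146 of the 211 rises, against 1.23% of all probe sets, and for 21 of the 32 falls, against 0.57%; these genes were selected in the same arrays, so the counts are descriptions.

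The test of the difference between lines, coded as GM10861 minus GM10855, called 3 probe sets (0.0141%). CLMN had log2 signals of 6.24, 6.10 and 6.34 in GM10855 with both agents, against 5.04, 4.75 and 5.08 untreated, and of 6.39, 6.65 and 6.45 in GM10861 with both agents, against 6.22, 6.15 and 6.04 untreated. Its rise was smaller in GM10861, by a difference of -0.908 (adjusted p = 0.00573), and untreated GM10861 already had a signal near that of treated GM10855. SLFN11, a DNA-damage factor, had 6.71, 6.60 and 6.56 in GM10855 with both agents, against 5.87, 5.54 and 5.58 untreated, while in GM10861 it had 7.50, 7.44 and 7.46 with both agents, against 7.42, 7.33 and 7.47 untreated, with overlap (difference -0.898, adjusted p = 0.00573). The last was the nucleotide phosphatase ENTPD7 (difference -0.716, adjusted p = 0.0294), at 7.68, 7.68 and 7.69 in GM10855 with both agents, against 6.99, 6.69 and 6.95 untreated, and at 6.77, 6.70 and 6.87 in GM10861 with both agents, against 6.64, 6.73 and 6.70 untreated. The count was 0 when only the arrays compared were fitted, and 2 without array 1 of GM10855 with both agents. CD38 and LGMN rose further in GM10861 (1.24 and 1.059) than in GM10855 (0.777 and 0.650), and G0S2 changed by 0.806 in GM10861 but by 0.0892 in GM10855; none of these differences was called.

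**Figure D3:**
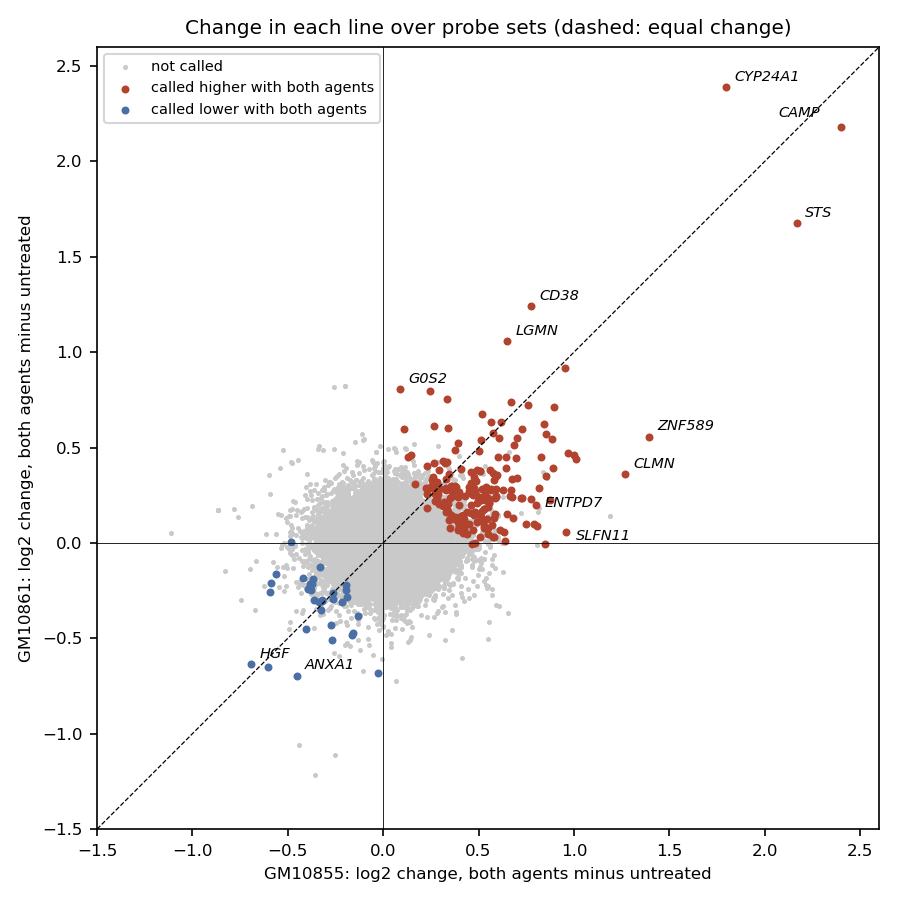
Log2 change with both agents against untreated in GM10855 (horizontal axis) and in GM10861 (vertical axis) for 21214 probe sets; red and blue points were called higher and lower on average over the lines, and the dashed line marks equal change. Of the 211 red points 173 lie on the GM10855 side of that line, CLMN, SLFN11 and ENTPD7 among them.

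Changes in GM10855 also went with the length of the gene. Over 18389 genes the change with both agents and the genomic span of the gene had a Spearman correlation of 0.229 in GM10855 and -0.036 in GM10861, given as a description across genes, which are not independent. With genes split into 3 equal parts by span, the median change of the 6130 longest was 0.0429 in GM10855 and -0.00264 in GM10861, and that of the 6130 shortest was -0.0404 and 0.011 in that order. Without array 1 of GM10855 with both agents the correlation in GM10855 was 0.157, and the medians there were 0.0414 for the longest and -0.0196 for the shortest. Of the called genes, 103 rises came from the longest part and 31 from the shortest. The part of RNA quality in this was not tested.

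Histone genes that are transcribed in S phase had the lowest median of the lists: all 29 measured were below 0, with a median of -0.201, and 1 was called, H1-2, which fell by 0.314 (adjusted p = 0.0477). Over all genes 50% were below 0, 0.994% were called higher and 0.157% lower. The mean log2 signal over the 29 genes was 7.365, 7.639 and 7.546 in GM10855 with both agents, against 8.067, 7.656 and 7.742 untreated, and 8.124, 8.161 and 8.065 in GM10861 with both agents, against 8.163, 8.252 and 8.230 untreated. The lowest array of all was array 1 of GM10855 with both agents, the one that stood apart, and the highest of its line was untreated array 1. The median was -0.31 in GM10855, -0.214 in GM10855 without that array and -0.0938 in GM10861, and the median of the mean change without it was -0.16. With single agents the median was -0.00549 for calcitriol and -0.131 for estrogen. H1-2 lost its call in 10 of the 12 fits that left out an array. H2AC12, which is not in the list, also fell (-0.398, adjusted p = 0.0168), and histone genes of a cluster are so alike that probes may be shared among them.

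Among the proliferation lists, 28 of 34 genes of G1/S and DNA replication and 28 of 34 of G2/M and mitosis were below 0, with medians of -0.0633 and -0.0913, and 0 were called. By line, 20 of the G1/S genes were below 0 in GM10855 and 28 in GM10861 (medians -0.0178 and -0.0939). For G2/M the counts were 21 and 30 (medians -0.0522 and -0.133). Of 39 cytosolic ribosomal protein genes 37 were below 0 (median -0.0733), and of 39 genes of oxidative phosphorylation 34 were (median -0.0736), again with 0 calls. Of all genes 50% were below 0, and 0.994% were called higher and 0.157% lower. The median of oxidative phosphorylation was -0.138 in GM10855 and -0.0537 in GM10861, and the ribosomal median was -0.0911 in GM10861. Of the compared GM10855 arrays, untreated array 1 had the highest mean signal in each of these lists. For G1/S it was 7.695, against 7.504 and 7.564 untreated and 7.505 to 7.587 with both agents. For G2/M it was 8.011, against 7.916 and 7.864 untreated and 7.826 to 7.962 with both agents. In these 2 lists the GM10855 arrays with both agents thus overlapped the other untreated arrays, so a lower mean there rests on untreated array 1. In GM10861 the ranges did not overlap: 8.038 to 8.123 against 8.148 to 8.212 for G1/S, and 8.425 to 8.476 against 8.547 to 8.612 for G2/M. Without array 1 of GM10855 with both agents the ribosomal median was -0.0498 (-0.00671 in GM10855, against -0.0648 with that array) and the other 3 medians were -0.0974 to -0.0681. RMA removes any change shared by most genes, so these shifts are relative to the rest of the array.

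**Figure D4:**
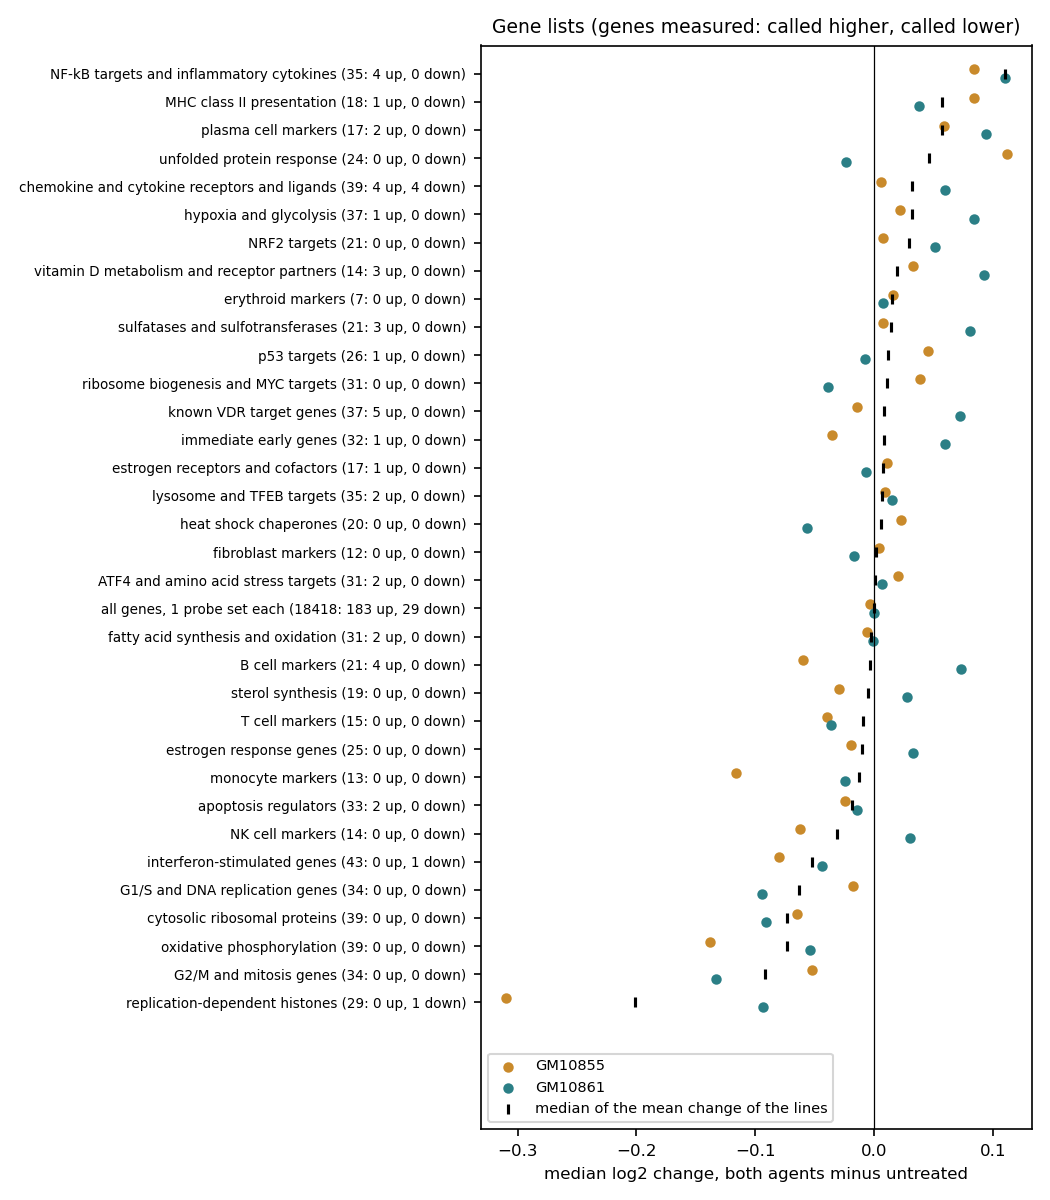
Median log2 change with both agents against untreated (horizontal axis) for each gene list and for all genes; circles are the medians in GM10855 and GM10861, bars the median of the mean change, and brackets give genes measured and called. By the mean change the histone list lies lowest, at -0.201, and the NF-kB list highest, at 0.11.

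Among 173 probe sets for microRNA hairpins 5 were called, 4 higher and 1 lower, which is 2.89% of them, against 1.15% of all probe sets. They were chosen after their values were seen, and the array reads RNA from the hairpin's locus in labelled cDNA, not the mature microRNA. The mature sequences from RefSeq (GRCh38.p14) are shown with the seed, bases 2 to 8, which pairs with target messages, in capitals.
let-7f-5p (MIRLET7F1): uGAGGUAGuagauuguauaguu
miR-21-5p (MIR21): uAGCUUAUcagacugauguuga
miR-296-5p (MIR296): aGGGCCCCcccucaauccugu
miR-365a-3p (MIR365A): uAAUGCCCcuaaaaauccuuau
miR-16-5p (MIR16-2): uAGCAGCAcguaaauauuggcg
No seed was shared among the 5. MIRLET7F1, a hairpin of the let-7 family that represses growth genes, had log2 signals of 5.73, 5.42 and 5.50 in GM10855 with both agents, against 4.74, 4.82 and 4.97 untreated, and of 5.33, 5.47 and 5.66 in GM10861 with both agents, against 4.92, 4.90 and 4.98 untreated. The treated arrays were above the untreated ones in each line, and the rise of 0.63 ± 0.10 (SE, adjusted p = 0.000523) kept its call in all 12 fits that left out an array. It was 0.571 with estrogen alone and 0.274 with calcitriol alone against the same untreated arrays, and both agents differed from estrogen alone by 0.0558 (adjusted p = 0.942). MIR21, MIR296 and MIR365A rose by 0.473, 0.433 and 0.370 (adjusted p = 0.0448, 0.0234 and 0.0388), and MIR16-2 fell by 0.386 (adjusted p = 0.0347). Those 4 lost their call in 9, 6, 9 and 9 of the 12 fits, and their differences from estrogen alone, between -0.14 and 0.186, were not called.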

How the data were processed

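Total RNA of the 24 samples was hybridised to Affymetrix arrays, 1 array per sample. The log2 signals per probe set were deposited by the authors after RMA, run in Affymetrix Expression Console 1.0.1 as the submitters' processing notes have it. RMA gives the single probes of all arrays the same distribution before it summarises them per probe set. It so removes a change shared by most genes, and it compresses fold changes of dim probe sets. The array medians of the summarised values still ran from 5.384 to 5.498. Build: not given in the sources used here. No detection p-values came with the values, so no background limit was set. The number of arrays limits the precision.

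A platform probe table named 21214 of 33297 probe sets. Of these 19460 carry 1 symbol, 19429 of them matched to a current gene by Entrez ID, and 1754 carry several. No coordinates of probe sets are printed. Gene lists used 1 probe set per gene over 18418 genes. There were 33 lists with 955 entries, 863 of them measured, among them p53 targets (1 of 26 called, GADD45A). The members, lists and tests were chosen with earlier results of these data known.

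In R 4.3.3, limma 3.58.1 fitted 1 mean for each of the 8 groups over 24 arrays (16 residual and 6.73 prior degrees of freedom). Tests were two-sided, with Benjamini-Hochberg adjustment within a comparison over 21214 probe sets, and the code was tested on simulated data. Named genes were the 15 largest rises and the 15 largest falls among single-symbol probe sets that were called and moved the same way in each line. Up to 4 members of each list by p were added, up to 5 line differences in each direction, the 3 smallest p-values each way where a comparison called none, and in every case CAMP, CYP24A1, CYP27B1, VDR, RXRA, ESR2 and ESR1. That rule leaves out Y-linked genes, antigen receptor segments, HLA-DRB, genes with common deletions, pseudogenes, small RNAs and predicted loci. The alternatives were a filter on low signals, all probe sets, median centring, cyclic loess, trend and robust eBayes, array weights, only the arrays compared, a minimum log2 change of 0.5, the mean of a gene's probe sets for lists, and leaving out each array in turn.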

Additional observations from a re-analysis of the deposited data

Results flagged for a closer look

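The response to both agents differed between the lines, by the test of the difference itself, for CLMN (GM10861 minus GM10855 -0.908 on the log2 scale), SLFN11 (-0.898) and ENTPD7 (-0.716). In each case the rise was larger in GM10855, and the signals are given above. The count of line differences was 0 with only the arrays compared in the fit, and 0 without the 2 arrays farthest on the second principal component. A signal also appeared outside the probe sets that were tested with a symbol: when all 33297 probe sets were tested together, 42 of the 12083 without a symbol were called, 30 higher and 12 lower with both agents. That is 0.348% of them, against 184 of the 21214 with a symbol (0.867%) in the same test, and their genes are unnamed here.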

How the results depend on the processing

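The count of 243 probe sets called with both agents against untreated was 371 with trend and robust eBayes, 138 with only the arrays compared and 44 with a minimum absolute log2 change of 0.5, and 165 to 314 when an array was left out; 124 of the 243 calls were kept in every one of the 12 such fits. The GM10855 count of 495 became 770, 64 and 144 under the same 3 settings, 194 with array weights, 125 without the 2 arrays farthest on the second principal component (an alternative chosen after seeing the data) and 120 to 640 leaving out an array. The GM10861 count of 39 became 22 after median centring, 66 with array weights, 24 with only the arrays compared and 20 to 24 leaving out an array. The 3 line differences became 23 with trend and robust eBayes, 0 with only the arrays compared, 0 without the 2 arrays and 2 to 23 leaving out an array. Against estrogen alone, 160 became 99 with only the arrays compared, 36 with the minimum change, 86 without the 2 arrays and 99 to 139 leaving out an array. Against calcitriol alone, 0 became 2 with the filter on low signals and 1 with array weights, and 0 to 1 leaving out an array; the interaction stayed at 0 in each of its 24 such fits. Calcitriol against estrogen alone went to 34 of 121 with the minimum change and 89 to 115 leaving out an array, and the 39 called list members to 29 to 41. Changes near 0 turned sign when an array was left out: RIN2 0.0177 and 0.0172, EPB42 -0.015 and -0.0109, ESR2 0.0112, 0.0379 and 0.0313, AHSP -0.00437 and CYP27B1 -0.0342; none was called, and their ranges over the fits that left out an array were -0.0607 to 0.0177 for RIN2, -0.015 to 0.0563 for EPB42, -0.0722 to 0.0379 for ESR2, -0.00437 to 0.124 for AHSP and -0.0342 to 0.137 for CYP27B1. Of the single-gene values under the alternatives, 3100 kept their side of the threshold and direction, 237 lost their call and 45 gained one. Median centring shifted the median of all changes by -0.0133 and cyclic loess by -0.000845. No paired analysis was possible because the arrays carry no replicate numbers in the labels. The causes of these movements were not tested.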
